A study of Homo sapiens with 16 samples.

Results

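Long noncoding RNA genes make transcripts that are not translated into protein. Those named LINC lie between protein-coding genes, and those whose name ends in AS1 or AS2 are transcribed from the strand opposite the gene they are named for, sometimes overlapping it and sometimes starting beside it and running the other way. The members described here were found in the deposited intensity table by their symbol in the platform annotation: it starts with LINC0 or LINC1, ends in -AS1 or -AS2, or is H19, MEG3, MALAT1, NEAT1, TUG1 or GAS5. Each gene was represented by its brightest probe and kept if that probe exceeded the detection floor on at least 3 of the 16 arrays. The floor lies just above 134.5, the 99th percentile of the array background. The genes were thus chosen by name and selected on brightness over both arms, with no regard to direction. Of 434 such genes with a named probe 172 were kept, among 13257 genes kept of 20046 in all. The kept members are 84 LINC genes, 84 antisense genes, H19, MEG3, TUG1 and GAS5. MALAT1 had a probe that exceeded the floor on 0 arrays, and NEAT1 had no named probe here. In the current reference 168 members are listed as long noncoding and 2 as antisense RNA, while TUG1 is listed as protein-coding, so the name rule and the biotype differ there, and LINC00950 was not matched.

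The samples were H1 cells, an established human embryonic stem cell line, grown on Matrigel in mTeSR medium. One arm had no addition. The other received bone morphogenetic protein 4 (BMP4), a signalling ligand that drives human embryonic stem cells out of the pluripotent state, at 100 ng/ml. Each arm has 1 bead array of total RNA for each day from 0 to 7, 16 arrays in all, and a day 0 array is labelled for each arm. Because no day was repeated, days 1 to 3 (n = 3 arrays per arm) and days 4 to 7 (n = 4 arrays per arm) were pooled as an early and a late window. The spread behind the p-values is thus that between neighbouring days, any trend within a window included, and it may be technical, since no label tells whether separate cultures were sampled.

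Markers of the labelled cell type were present: all 11 pluripotency markers tested exceeded the floor in untreated cells, and 10 of them fell under BMP4 in the late window. In the same window 12 of 13 trophoblast or amnion markers and 9 of 9 mesoderm markers rose. So did 4 of 7 endoderm markers tested and the 3 blood and endothelium markers tested. These 3 are the only ones of 8 listed blood and endothelium markers that passed the filter. Of 6 neural markers tested 4 were lower than in untreated cells. The mean untreated intensity rose between the windows from 123 to 428 for SIX3 and from 122 to 209.5 for PAX6. With BMP4 the means of both stayed under the floor. The intensities of each list summed late to 40014 to 45140.0 in untreated cells and 18517 to 25420.0 with BMP4 for pluripotency, 2109 to 2237 in untreated cells and 27319 to 29444 with BMP4 for trophoblast or amnion, 1211 to 1263 in untreated cells and 5335 to 8297 with BMP4 for mesoderm, and 2373 to 4759 in untreated cells and 1814 to 2172 with BMP4 for neural markers. Of 5 fibroblast markers tested 3 rose and 1 fell, with sums of 3969 to 5072 in untreated cells and 3735 to 20902 with BMP4. The part of such shifts in cell type in the noncoding changes below was not tested, and in bulk RNA fewer cells of a type and less RNA per cell cannot be told apart. The day 0 arrays, 1 per arm, already differed for many members. With that difference subtracted, 0 members were higher and 1 lower in days 1 to 3, and 9 higher and 11 lower in days 4 to 7. The calls over all genes dropped in the same setting, from 29.7% to 2.37% early and from 54.5% to 19.7% late. Of the genes described below, ATP2B1-AS1, LINC02076, LINC01252, ID2-AS1, TPT1-AS1, LINC02593 and ANXA2R-AS1 kept an upward late call in that setting. A downward late call was kept by PRKCQ-AS1, LINC01315, FEZF1-AS1, MORC2-AS1, MCM3AP-AS1 and OIP5-AS1. The late calls of the other members described ended, and so did all early calls except that of LINC01844.

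Promoter windows from RefSeq (GRCh38.p14), covering 250 bases before to 50 bases after the annotated start, were matched for 132 of the 172 members. Shown are 3 antisense genes that start head to head with the gene they are named for and passed the late test together with it. ID2-AS1 rose with ID2, and TPT1-AS1 and SLC38A2-AS1 rose while their partners fell. These 3 are examples from 6 pairs called together late with starts on opposite strands within 1000 bases. Of the 6 pairs 4 moved the same way and 2 opposite ways. The rise of SLC38A2-AS1 did not hold with day 0 subtracted (late log2 -0.0027), and fewer than 3 of its untreated arrays exceeded the floor. Sequences run 5′ to 3′ on the strand of the antisense gene. Capitals mark the bases from the partner's annotated start up to the base before the start of the antisense gene.
ID2-AS1 (GRCh38.p14, chr2:8681814-8682113, minus strand): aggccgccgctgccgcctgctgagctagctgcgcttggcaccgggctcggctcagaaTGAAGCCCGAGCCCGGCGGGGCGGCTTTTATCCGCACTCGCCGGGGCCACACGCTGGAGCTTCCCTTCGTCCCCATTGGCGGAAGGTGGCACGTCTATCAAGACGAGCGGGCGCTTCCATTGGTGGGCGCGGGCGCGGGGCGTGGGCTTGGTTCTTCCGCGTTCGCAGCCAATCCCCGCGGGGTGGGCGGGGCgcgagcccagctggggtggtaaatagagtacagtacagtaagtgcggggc
TPT1-AS1 (GRCh38.p14, chr13:45341095-45341394, plus strand): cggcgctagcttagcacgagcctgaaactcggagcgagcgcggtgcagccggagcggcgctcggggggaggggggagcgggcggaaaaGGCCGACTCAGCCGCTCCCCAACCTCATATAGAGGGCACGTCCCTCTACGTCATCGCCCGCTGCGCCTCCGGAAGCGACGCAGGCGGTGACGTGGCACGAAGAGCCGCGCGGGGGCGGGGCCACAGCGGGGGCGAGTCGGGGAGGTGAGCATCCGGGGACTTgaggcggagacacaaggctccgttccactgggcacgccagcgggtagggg
SLC38A2-AS1 (GRCh38.p14, chr12:46372533-46372832, plus strand): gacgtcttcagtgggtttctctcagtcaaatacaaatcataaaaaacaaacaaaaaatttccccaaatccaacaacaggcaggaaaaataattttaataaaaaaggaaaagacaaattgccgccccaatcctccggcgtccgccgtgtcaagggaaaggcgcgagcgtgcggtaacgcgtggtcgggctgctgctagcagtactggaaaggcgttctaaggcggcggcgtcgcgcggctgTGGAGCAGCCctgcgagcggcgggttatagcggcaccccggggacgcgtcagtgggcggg
The starts lie 193 bases apart for ID2-AS1 and ID2, 162 bases apart for TPT1-AS1 and TPT1, and 10 bases apart for SLC38A2-AS1 and SLC38A2. The median GC content of the member windows was 57.8%, against 58.3% over all 27305 promoter windows. It was 64.5% in the 64 antisense windows and 48.7% in the 64 LINC windows. A TATA-type element, searched on both strands as TATAAA, occurred in 3.13% of the antisense windows, 18.8% of the LINC windows and 11.95% of all windows. A core of a BMP-responsive SMAD motif, GGCGCC, occurred in 13.6% of the member windows and 18.97% of all windows, and CAGACA, which holds a SMAD box, in 16.7% and 16.8%. None of these 3 motifs occurs in the windows printed above, which says only that these letters are not in these windows.

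Relative to untreated cells, 28 members were higher and 15 lower under BMP4 in days 1 to 3, by limma with Benjamini-Hochberg adjustment over all genes at an adjusted p under 0.05. This is 25.0% of the members, where 29.7% of all genes tested were called (16.3% higher, 13.4% lower). In days 4 to 7, 39 were higher and 26 lower, 37.8% of the members against 54.5% of all genes (27.5% higher, 26.9% lower). The arms did not overlap early in 41 members with BMP4 above and 24 with BMP4 below, against 23.8% and 19.4% of all genes, and late in 35 and 19, against 24.2% and 23.3%. The median late log2 change was 0.08 over the members and 0.00 over all genes. Between the windows 18 members were higher in both, 11 lower in both, 12 called early only, 34 late only and 95 in neither, while FEZF1-AS1 and LINC00623 were higher early and lower late. Antisense genes were called in both directions in the late window, 21 higher and 20 lower. LINC genes had 18 higher and 6 lower. Single arrays moved some of these counts: 16, 14 and 15 members were higher early without the untreated day 1, untreated day 3 and BMP4 day 3 array, in that order, and 9 lower without the untreated day 1 array. The share of all genes called early dropped in these fits too, from 29.7% to 22.1%, 21.6% and 24.1% in the same order. None of H19, MEG3, TUG1 and GAS5 passed the limma test in either window, adjusted or at an unadjusted p under 0.05.

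**Figure D1:**
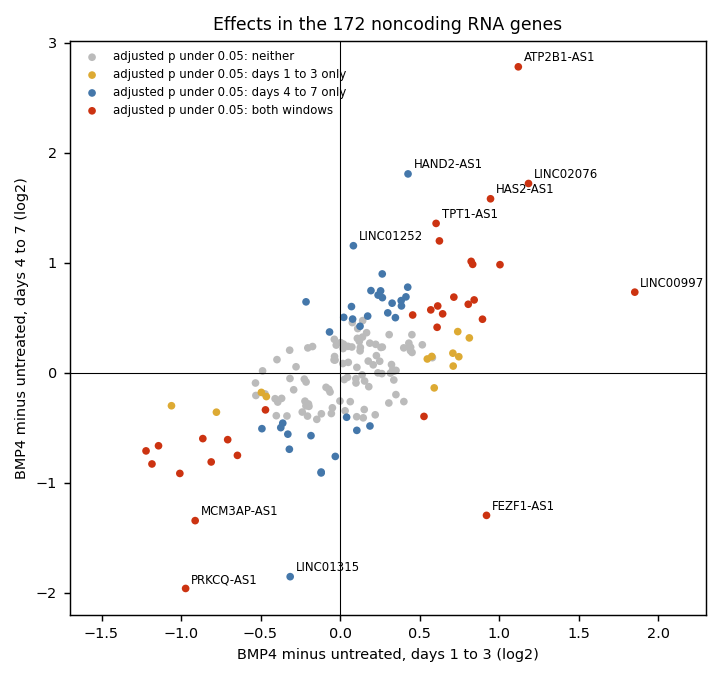
Each point is 1 of the 172 noncoding RNA genes, with the log2 difference between BMP4 and untreated cells in days 1 to 3 on the horizontal axis and in days 4 to 7 on the vertical axis, coloured by the window in which the adjusted p was under 0.05. ATP2B1-AS1 lies highest at a late log2 change of 2.78, PRKCQ-AS1 lowest at -1.96, and FEZF1-AS1 is higher early and lower late.

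Most members were dim, and the filter bears on these counts. Of the 172, 69 had a mean intensity under the floor, and 45 exceeded it on all 16 arrays. Fewer than 3 untreated arrays exceeded the floor for 47 members that had at least 3 such BMP4 arrays. By limma 23 of these were higher late and 0 lower. Conversely, 22 members had fewer than 3 BMP4 arrays and at least 3 untreated arrays above the floor. Of these 0 were higher late and 3 lower. For genes kept only through a single arm the filter selects for a difference toward that arm. Such counts are therefore a description, and so are the p-values of such genes. Of the members described below this holds for ANXA2R-AS1, DLX6-AS1, HAND2-AS1, HPN-AS1, IGFBP-AS1, LINC00841, LINC01607, LINC02593 and SLC38A2-AS1, kept through the BMP4 arm, and for ASMTL-AS1, GPC1-AS1, LINC00391, LINC01077 and OTUD6B-AS1, kept through the untreated arm. Among the 93 members with at least 3 arrays above the floor in each arm, 16 were higher and 23 lower late. These splits by arm were not made over all genes, of which 27.5% were higher and 26.9% lower late without a split. In the dimmest class (mean up to the floor) 21.7% of the members and 30.8% of all genes were called late, in the class from the floor to 150 the shares were 42.9% and 41.7%, from 150 to 300 they were 42.9% and 55.7%, and above 300 they were 73.7% and 62.8%. The brightest class holds only 19 members, 6 of them higher and 8 lower. A log2 change of at least 1 was reached late by 8 members upward and 4 downward, or 4.65% and 2.33%, against 9.79% and 7.15% of all genes. The genes nearest the filter differed little: the third-highest intensity was 134.8 for LINC02783, just outside, and 135.06 for GPR158-AS1, just inside.

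**Figure D2:**
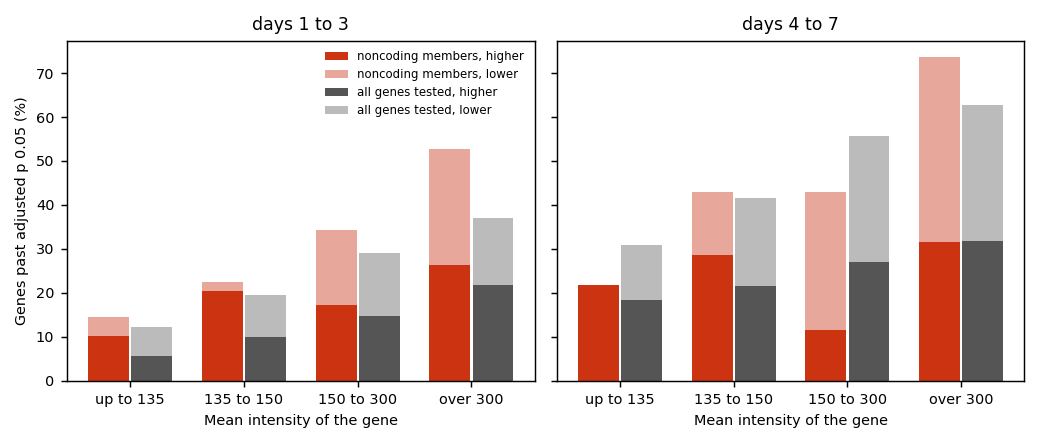
Bars give the percent of genes past an adjusted p of 0.05 in days 1 to 3 (left) and days 4 to 7 (right), by mean intensity of the gene, with the higher share at the base and the lower share above it, for the noncoding members and for all genes tested. In the dimmest class 15 of 69 members were higher late and 0 were lower, whereas above 300 there were 6 higher and 8 lower of 19.

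The largest late rise belonged to ATP2B1-AS1, on chromosome 12, a noncoding gene beside ATP2B1, which encodes a plasma membrane calcium pump. On days 0 to 7 its intensity was 193, 192, 186, 189, 221, 219.9, 219 and 287 in untreated cells and 173, 229, 259, 442, 662, 1199, 1284 and 1049 with BMP4. The arms were close at day 0, separated from day 1, and did not overlap in either window. After background correction it was 6.88-fold higher late (log2 2.78 ± 0.27 (SE), adjusted p = 2.75e-07 by limma), and 2.18-fold higher early (log2 1.12 ± 0.31 (SE), adjusted p = 0.0124). The early call was lost without the BMP4 day 3 array (adjusted p = 0.0688) and with days 1 to 2 as the early window (adjusted p = 0.129), while the late effect kept its call in every alternative run, subtraction of the day 0 difference included (log2 3.14, adjusted p = 0.00285). The late effect exceeded the early one by 1.66 on the log2 scale (adjusted p = 0.0189), a call lost in 2 of 14 fits that left out a single array, with an adjusted p of 0.0503 to 0.0599 without the array of untreated day 1 or BMP4 day 2. Its partner ATP2B1 did not pass the test: 153, 146, 157 and 157 in untreated cells and 131, 164, 160.5 and 166 with BMP4 on days 4 to 7 (log2 0.00 ± 0.21 (SE), adjusted p = 0.989). Over all days and both arms the ATP2B1 probe read between 128 and 166, close to the floor, which limits this comparison.

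LINC02076, on chromosome 17, read 247, 250.4, 215, 269, 243, 224, 244 and 292 in untreated cells on days 0 to 7 and 174, 349, 326, 700.3, 457, 678, 762 and 514 with BMP4. It was lower in the BMP4 arm at day 0 and above every untreated array from day 1, 3.3-fold late (log2 1.72 ± 0.27 (SE), adjusted p = 4.08e-05). Subtraction of the day 0 difference left the late call (log2 2.73, adjusted p = 0.00601) and ended the early one (adjusted p = 0.073). TPT1-AS1, whose promoter is printed above, had the untreated values 181, 154, 154, 149, 156, 167, 175 and 161 and the BMP4 values 177, 176, 175, 184, 211, 258, 297 and 303. Its arms were alike at day 0 and moved apart steadily, to 2.56-fold late (log2 1.36 ± 0.18 (SE), adjusted p = 7.46e-06). Its early call (adjusted p = 0.0363) was lost in 6 of 14 fits without a single array, those of days 1 to 3 in either arm, and in other alternatives, with an adjusted p of 0.053 to 0.207 in plain log2 intensity, with an offset of 50, without the filter, with housekeeping centring or with days 1 to 2 as the early window. LINC01252 on chromosome 12 ranged from 129.8 to 147 in untreated cells and reached 161, 181, 200.2 and 179.8 on days 4 to 7 of BMP4, above every untreated array, 2.23-fold late (adjusted p = 0.000169).

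Other rises were smaller in intensity and sat near the floor. LINC02593 on chromosome 1 was below the floor on every untreated array (114 to 123) and read 116, 126, 142, 146, 155, 152, 149 and 150.5 under BMP4 on days 0 to 7. It was thus kept through the BMP4 arm, and its late values were at least 1.48-fold higher (log2 1.20 ± 0.16 (SE), adjusted p = 6.62e-06). This call held with the day 0 difference subtracted (adjusted p = 0.0134). LINC01102 and LINC00841 were raised in the BMP4 arm from day 0 on. LINC01102, on chromosome 2, read 168, 165, 164, 154, 166, 158, 167 and 161 with BMP4 against 125 to 138 without, and LINC00841, on chromosome 10, read 167, 163, 161, 160.3, 155, 154, 156 and 148 against 116 to 141. Both were called late, at least 1.77-fold and at least 1.53-fold, and neither call held with the day 0 difference subtracted (late log2 0.13 and 0.094, adjusted p = 0.819 and 0.865). IGFBP-AS1 rose early by at least 1.44-fold (adjusted p = 0.00448) and late by at least 1.33-fold (adjusted p = 0.00383); the early call also ended with days 1 to 2 as the early window (adjusted p = 0.078), and both ended with day 0 subtracted (adjusted p = 0.434 and 0.446). FUT8-AS1, beside the fucosyltransferase gene FUT8, was 1.98-fold higher late (adjusted p = 0.00388), and this call too ended with day 0 subtracted (adjusted p = 0.333).

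LINC00997, on chromosome 7, had the largest early rise and a transient course. It read 218, 199, 231, 222, 230.5, 227, 212 and 210.5 in untreated cells and 323, 448, 577, 537, 382, 319, 269 and 247 with BMP4 on days 0 to 7. The BMP4 values peaked on days 2 and 3 and returned toward the untreated ones by day 7 without overlapping them. The early rise was 3.61-fold (log2 1.85 ± 0.21 (SE), adjusted p = 1.05e-05) and the late one 1.66-fold (log2 0.73 ± 0.18 (SE), adjusted p = 0.00272). Within the BMP4 arm it fell by 1.08 on the log2 scale from the early to the late window (adjusted p = 0.000814). The BMP4 arm was already higher at day 0, and with that difference subtracted neither window passed (early log2 0.92, adjusted p = 0.256; late log2 -0.20, adjusted p = 0.769). SERTAD4-AS1, beside the gene SERTAD4 on chromosome 1, had a similar shape: 165, 293, 257, 214, 203, 161, 176 and 187 with BMP4 against 143 to 199 without. It rose 1.86-fold early (adjusted p = 0.00686), a call that ended with day 0 subtracted (adjusted p = 0.794). Within the BMP4 arm it fell by 0.92 on the log2 scale (adjusted p = 0.0042). LINC00623, on chromosome 1, read 423, 492, 424, 460.2, 379, 383 and 515 in untreated cells on days 1 to 7 and 549.8, 689, 564, 418, 347, 322 and 326 with BMP4. It was thus higher in days 1 to 3 (1.44-fold, adjusted p = 0.0353) and lower, with overlapping arms, in days 4 to 7 (1.32-fold, adjusted p = 0.0396). Single arrays decided these calls: the early one was lost with an adjusted p of 0.109 to 0.15 without the array of untreated day 1 or 3 or BMP4 day 2, and the late one with 0.0755 to 0.139 without the array of untreated day 4 or 7 or BMP4 day 5, 6 or 7. The early call was also lost at an adjusted p of 0.105 to 0.124 with housekeeping centring or with days 1 to 2 as the early window, and the late one at 0.0532 without the filter.

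**Figure D3:**
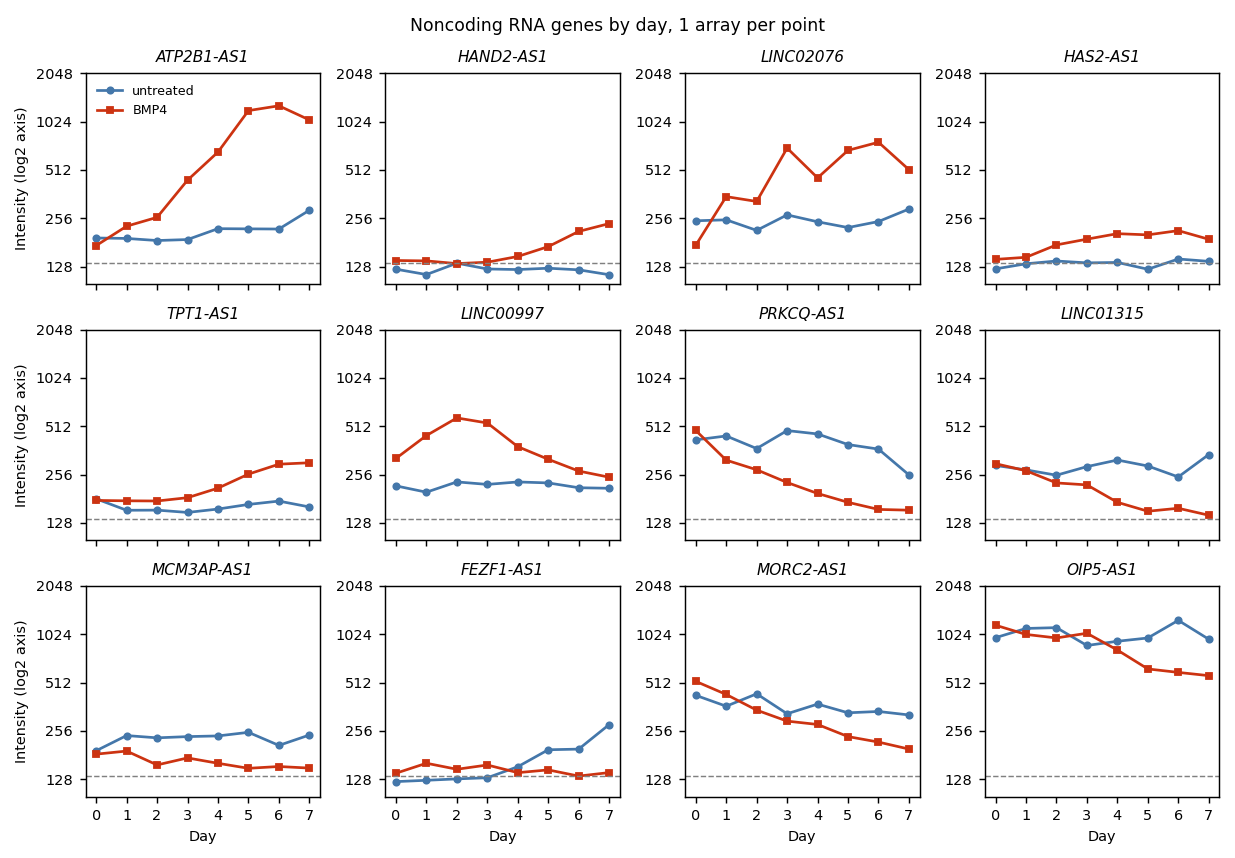
Deposited intensity (log2 axis) by day for 12 noncoding RNA genes, 1 array per point, untreated cells in blue circles and BMP4 in red squares, with the detection floor dashed. ATP2B1-AS1 read between 662 and 1284 on days 4 to 7 of BMP4, PRKCQ-AS1 fell to 154, LINC00997 was highest on day 2 of BMP4, and the highest values of FEZF1-AS1 are those of untreated cells on the last days.

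Among the falls, PRKCQ-AS1 on chromosome 10 changed most. It read 421, 446, 372, 481, 459, 394, 369 and 255 in untreated cells. With BMP4 the values were 482, 315, 274, 229, 195, 172, 155 and 154, a fall on each successive day from a slightly higher start. It was 3.9-fold lower late (log2 -1.96 ± 0.25 (SE), adjusted p = 4.12e-06) and the arms did not overlap in either window. The early fall (adjusted p = 0.0162) was lost with an adjusted p of 0.0531 to 0.0737 without the array of untreated day 1 or 3 or BMP4 day 3, and of 0.195 with days 1 to 2 as the early window. A dimmer probe of the gene, with a mean intensity of 139, gave a late change of -0.15 in plain log2 intensity, against -1.10 for the probe used. LINC01315, on chromosome 22, read 292, 274, 254, 287, 316, 289.7, 248 and 341 without and 299.5, 271, 227, 221, 172, 151, 158 and 143 with BMP4, and the arms lay furthest apart on days 4 to 7. Its late fall was 3.62-fold (log2 -1.85 ± 0.19 (SE), adjusted p = 4.14e-07), its early change did not pass (log2 -0.31 ± 0.22 (SE), adjusted p = 0.298), and the difference between the windows did (-1.54 on the log2 scale, adjusted p = 0.00418). Both late falls kept their calls with day 0 subtracted (adjusted p = 0.0112 and 0.00592).

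MCM3AP-AS1, on chromosome 21 opposite MCM3AP, which encodes an mRNA export factor, read 193, 239.7, 232, 236, 238, 251, 208 and 242 without BMP4. The treated arm read 184, 192, 157, 174, 161, 149.9, 154 and 150.4. From day 1 every BMP4 array was below every untreated one, 2.54-fold late (log2 -1.35 ± 0.16 (SE), adjusted p = 2.84e-06). MORC2-AS1, on chromosome 22 opposite the chromatin-silencing gene MORC2, fell through the BMP4 course, 521, 432, 345, 295, 281, 236, 218 and 198. Its untreated values were 427, 365, 436, 328, 376, 332, 339 and 322. It was 1.87-fold lower late (log2 -0.90 ± 0.19 (SE), adjusted p = 0.000828). OIP5-AS1, on chromosome 15, is known as an abundant cytoplasmic RNA that binds the microRNA miR-7. It read 975, 1113, 1126, 872, 927, 971, 1251 and 954 without BMP4. The BMP4 values were 1166, 1022, 972, 1039, 817, 623, 593 and 566. Its arms overlapped in the early window and separated late, when it was 1.7-fold lower (log2 -0.76 ± 0.14 (SE), adjusted p = 0.000256). All 3 kept their late calls with day 0 subtracted (adjusted p = 0.03, 0.0488 and 0.0305 in the same order). DLG5-AS1 was at least 1.69-fold lower late (adjusted p = 0.00122), with late BMP4 values of 147, 137, 117 and 135.3 against 162, 153, 161 and 183 in untreated cells; its call ended with day 0 subtracted (adjusted p = 0.323).

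A further group was lower in the BMP4 arm from day 0 on. ITPK1-AS1, on chromosome 14 opposite the inositol kinase gene ITPK1, is among the brightest members: 4409, 5248, 4728, 5647, 5482, 4463, 4956 and 4041 without and 2492, 3534, 2704, 2558, 2866, 3704, 3273 and 2799 with BMP4. LINC01018, on chromosome 5, read 1405, 1808, 1471, 1798, 2013, 1826, 1547 and 1255 without and 992, 1192, 902, 944, 853, 1182, 1029 and 872 with BMP4. A dimmer probe, with a mean intensity of 127, gave a late change of -0.01 in plain log2 intensity. ZEB1-AS1, beside ZEB1, a regulator of epithelial to mesenchymal transition, read 177, 175, 156, 185, 161, 190.3, 190.1 and 194 without and 126, 136, 136, 136, 136, 139, 171 and 139 with BMP4. In each the arms were separate at day 0 already, and late those of ZEB1-AS1 overlapped through its BMP4 day 6 array. The early falls were 1.82-fold, 1.75-fold and 2.01-fold in that order (adjusted p = 0.000314, 0.00311 and 0.0062), and the late ones 1.51-fold, 1.76-fold and 1.89-fold. None passed with day 0 subtracted in either window: the late log2 change became 0.25, -0.26 and 0.60. HDHD5-AS1 and VLDLR-AS1 also started lower with BMP4, with late falls of 1.58-fold and 1.78-fold and day 0-subtracted changes of 0.64 and 0.079. Single arrays also decided those 2 late falls: the adjusted p for HDHD5-AS1 was 0.0556 to 0.0601 without the array of untreated day 5 or BMP4 day 4, and for VLDLR-AS1 it was 0.0558 to 0.0726 without the array of untreated day 5 or 6 or BMP4 day 4. The late fall of VLDLR-AS1 was also lost with days 5 to 7 as the late window (adjusted p = 0.102), the early fall of ZEB1-AS1 with days 1 to 2 as the early window (adjusted p = 0.0665), and that of LINC01018 with the mean over its detected probes (adjusted p = 0.132).

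LINC00092, on chromosome 9, had the largest early fall. It read 146, 191, 188, 183, 186, 186, 157 and 193 without and 150.2, 156, 126, 136, 162, 149.8, 144 and 142 with BMP4, close at day 0 and then 2.33-fold lower early (log2 -1.22 ± 0.25 (SE), adjusted p = 0.00155) and 1.64-fold lower late (log2 -0.71 ± 0.22 (SE), adjusted p = 0.0103), with neither call kept when day 0 was subtracted (adjusted p = 0.159 and 0.232). LINC01311 fell 1.56-fold early and 1.68-fold late (adjusted p = 0.042 and 0.00398). Its early call was lost in 5 of 14 fits without a single array, with an adjusted p of up to 0.187, it was also lost without the filter (adjusted p = 0.0842), and both calls were lost with day 0 subtracted (adjusted p = 0.833 and 0.624). GPC1-AS1 and LINC01077 were lower early, at least 1.59-fold and at least 1.24-fold (adjusted p = 0.0153 and 0.0129), and did not pass late. Without single arrays the call for GPC1-AS1 was lost, with an adjusted p of 0.0528 to 0.0619 without the array of untreated day 1 or 2 or BMP4 day 1, as was that for LINC01077, with 0.0514 without the array of untreated day 3 and 0.119 with days 1 to 2 as the early window; with day 0 subtracted both ended (adjusted p = 0.399 and 0.93).

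None of the members known best by name passed the test between the arms. H19, an imprinted RNA made from the maternal chromosome 11 and abundant in embryonic and placental tissue, read 137, 136, 126, 125, 118, 155, 164 and 255 without and 112, 109.6, 108, 109, 125, 160.4, 168 and 189.7 with BMP4. Its values were highest on the last days of both arms, and the arms overlapped late (log2 -0.09 ± 0.43 (SE), adjusted p = 0.868). Within the BMP4 arm the rise from the early to the late window passed the test (log2 1.46 ± 0.46 (SE), adjusted p = 0.0274). Within the untreated arm it did not (log2 1.02 ± 0.46 (SE), adjusted p = 0.638), nor did the difference between these rises (log2 0.44 ± 0.65 (SE), adjusted p = 0.728). The rise under BMP4 lost its call in 5 of 14 fits without a single array: the adjusted p was 0.0597 to 0.0814 without the array of BMP4 day 1, 2, 5, 6 or 7. It was also lost at an adjusted p of 0.0594 to 0.0618 with an offset of 50 or with days 1 to 2 as the early window. MEG3, an imprinted RNA of chromosome 14, exceeded the floor on 4 of 16 arrays and ranged from 118 to 152 without and from 126 to 141 with BMP4. TUG1, on chromosome 22, widely expressed, was bright throughout, 2920.0 to 4075 without and 3450.2 to 4173 with BMP4, and its late log2 difference of 0.11 had an SE of 0.10. GAS5, which hosts small nucleolar RNAs in its introns, read from 124 to 151 without and from 132 to 158 with BMP4. Its late log2 change of 0.26 missed the threshold (adjusted p = 0.278) and passed without the untreated day 4 array (log2 0.47, adjusted p = 0.0249) and with days 5 to 7 as the late window (log2 0.57, adjusted p = 0.00907).

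Few changes over time without BMP4 were called: 1 member passed upward and 0 downward between the untreated windows, where 0.0754% of all genes passed. At an unadjusted p under 0.05 the limma counts were 6 and 4. A trend within a window counts as spread here, so few calls do not show that change was rare. With days 5 to 7 as the late window 0.44% of all genes passed. The member called was FEZF1-AS1, on chromosome 7 beside FEZF1, a forebrain transcription factor gene. It read 124, 126, 129, 131, 153, 196, 197 and 281 in untreated cells and 139.7, 161, 148, 157, 141, 147, 134 and 141 with BMP4. The untreated values were under the floor until day 3 and climbed to day 7, whereas the BMP4 values showed no such climb. The untreated rise was at least 2.84-fold (log2 1.76 ± 0.28 (SE), adjusted p = 0.0158) and lost its call in 5 of 14 fits without a single array, with an adjusted p of 0.0538 to 0.172 without the array of untreated day 1, 2, 3, 5 or 6, and in other alternatives at an adjusted p of 0.0602 to 0.15 in plain log2 intensity, with an offset of 50 or with days 1 to 2 as the early window. It was 2.46-fold lower under BMP4 late (log2 -1.30 ± 0.26 (SE), adjusted p = 0.000437), also with day 0 subtracted (adjusted p = 0.0294). Early it was at least 1.59-fold higher (log2 0.92 ± 0.30 (SE), adjusted p = 0.028), a call lost in 5 of 14 such fits (adjusted p up to 0.082), in other alternatives at an adjusted p of 0.0505 to 0.153 in plain log2 intensity, with an offset of 50, without the filter or with days 1 to 2 as the early window, and with day 0 subtracted (adjusted p = 0.827). The difference between the windows, -2.22 on the log2 scale (adjusted p = 0.0034), held in all 14 of those fits. Within the BMP4 arm 9 members rose and 12 fell between the windows, where 26.8% of all genes passed; 14 rose without the BMP4 day 4 array and 5 without that of day 5. The largest were ATP2B1-AS1 (2.26 on the log2 scale), H19, HAND2-AS1 (1.25) and LINC01607 (1.14) upward, and PRKCQ-AS1 and LINC01315 (-1.35 each), LINC00997 and LINC00623 (-0.99) downward. The effect of BMP4 differed between the windows for 9 members, 4 upward and 5 downward, where 9.35% of all genes passed (4.99% upward, 4.36% downward). Single arrays moved this count: between 0 and 5 members passed upward and between 2 and 9 downward when single arrays were left out, with 0 upward without the BMP4 day 2 array and 9 downward without that of day 4.

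Antisense genes were then set beside the genes they are named for. Of the 84 antisense members 66 had a partner that was tested, 13 had a partner below the filter and 5 had none with a named probe. In the late window 32 of the 66 antisense genes and 39 of their partners were called, and in 21 pairs both were. Of these 21, 16 moved the same way (6 up, 10 down) and 5 opposite ways. Among their antisense genes HAND2-AS1, ANXA2R-AS1, HPN-AS1 and SLC38A2-AS1 were kept through the BMP4 arm. ASMTL-AS1 and OTUD6B-AS1 were kept through the untreated arm. The filter bears on the direction of these genes, so the split is a description. Over the 66 pairs the late log2 changes had a Pearson r of 0.47 and a Spearman rho of 0.38, a description over genes measured on the same arrays. In the early window both were called in 6 pairs, 5 of them in the same direction, and r was 0.31. Over all genes 54.5% were called late and 29.7% early, and these counts and the LINC counts below are to be set against those shares. Whether more pairs were called together than those shares give was not tested. Among the 18 tested pairs with starts on opposite strands within 1000 bases both were called in 6 pairs, 4 in the same and 2 in opposite directions. LINC genes were set beside the nearest coding gene: of 57 with a tested neighbour both were called late in 7, all in the same direction. The strand that each probe reads was taken from the gene's annotation and was not checked here, so signal from an overlapping partner is not separated.

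**Figure D4:**
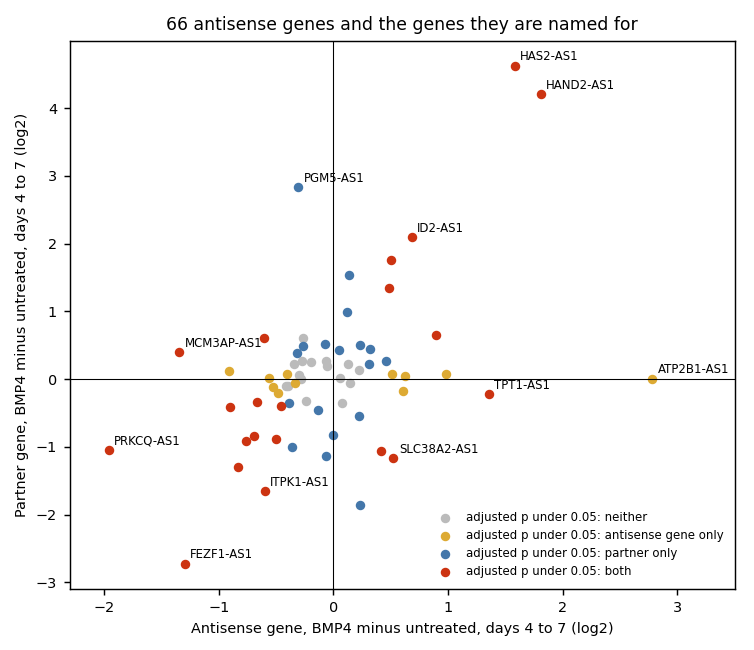
Each point is 1 of 66 antisense genes, with its late log2 change on the horizontal axis and that of the gene it is named for on the vertical axis, coloured by which of them passed an adjusted p of 0.05. HAS2-AS1 and HAND2-AS1 rose with their partners, and FEZF1-AS1 and PRKCQ-AS1 were lower with BMP4 along with theirs. ATP2B1-AS1 rose by 2.78 while ATP2B1, whose probe read close to the floor, stood at 0.00.

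HAND2-AS1, on chromosome 4, starts 1629 bases from HAND2, which encodes a transcription factor of heart and limb development. It read 123, 114, 134, 124, 123, 125, 122 and 114 without and 139.7, 139, 134, 136, 148, 171, 212 and 237 with BMP4, level to day 3 and then higher on each day to day 7. No untreated value exceeded the floor, so the gene was kept through the BMP4 arm. Its late values were at least 2.47-fold higher (log2 1.81 ± 0.26 (SE), adjusted p = 1.50e-05). A dimmer probe differed by 0.53 in plain log2 intensity, against 0.64 for the probe used. With day 0 subtracted it did not pass (log2 1.18, adjusted p = 0.154). HAND2 itself read 131, 131, 141, 170.2, 315, 732, 919 and 845 with BMP4 and 118 to 143 without, a late rise of at least 15.5-fold (log2 4.20 ± 0.34 (SE), adjusted p = 4.21e-08), and both were highest on days 5 to 7 of BMP4. The larger late than early effect on HAND2-AS1 (1.38 on the log2 scale, adjusted p = 0.0346) lost its call in 10 of 14 fits without a single array, the exceptions being the BMP4 arrays of days 3, 4 and 5 and the untreated array of day 1, and in other alternatives at an adjusted p of 0.0545 to 0.066 in plain log2 intensity, without the filter or with days 1 to 2 as the early window.

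HAS2-AS1, on chromosome 8, lies opposite HAS2, the gene of a hyaluronan synthase. It read 124, 133, 139, 135.1, 136, 123, 143 and 138 without and 142, 146, 175, 189.8, 205, 202, 214 and 189 with BMP4, higher from day 2. It rose 2.99-fold late (log2 1.58 ± 0.20 (SE), adjusted p = 5.19e-06), and this call ended with day 0 subtracted (adjusted p = 0.175). HAS2 read 133, 194, 540.1, 945, 1238, 1104, 787 and 919 with BMP4 and 122 to 155 without, 24.7-fold higher late (log2 4.63 ± 0.46 (SE), adjusted p = 3.29e-07). ID2-AS1, on chromosome 2, shares the window printed above with ID2, a direct BMP target gene that encodes an inhibitor of basic helix-loop-helix factors. From day 1 ID2-AS1 read 136, 138, 139.7, 131, 122, 135.2 and 142 without and 146, 147, 143, 149, 148, 159 and 153 with BMP4, whose arrays lay above the untreated ones in each window, and it was at least 1.43-fold higher late (log2 0.68 ± 0.16 (SE), adjusted p = 0.00168), a call kept with day 0 subtracted (log2 1.60, adjusted p = 0.00659). At day 0 the order was the reverse, 178 without and 142 with BMP4. ID2 rose by 4.28-fold late (log2 2.10 ± 0.15 (SE), adjusted p = 1.01e-08) and read 3024 on day 1 with BMP4 against 685 without, while the early change of ID2-AS1 did not pass (log2 0.27 ± 0.18 (SE), adjusted p = 0.302).

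Of the other pairs that rose together, the late log2 changes were 0.50 for ANXA2R-AS1 and 1.76 for ANXA2R, 0.90 for EZR-AS1 and 0.65 for EZR, which encodes the membrane linker ezrin, and 0.49 for SERTAD4-AS1 and 1.35 for SERTAD4. The call for SERTAD4-AS1 was lost in 8 of 14 fits without a single array, with an adjusted p of 0.0542 to 0.131 without the array of untreated day 1, 4, 6 or 7 or BMP4 day 2, 4, 6 or 7, and in other alternatives at an adjusted p of 0.0611 to 0.174 in plain log2 intensity, with an offset of 50, without the filter, with housekeeping centring or with days 5 to 7 as the late window. With day 0 subtracted the late log2 change turned to -0.31 for EZR-AS1 and -0.13 for SERTAD4-AS1. In 10 pairs both genes were lower with BMP4 than without, among them FEZF1-AS1 and FEZF1 at -1.30 and -2.73. FEZF1 read 128, 120.3, 121, 122, 169, 194, 237 and 546 in untreated cells and 134.9, 118, 111, 118, 118, 116, 114 and 108 with BMP4, with its highest values, like those of FEZF1-AS1, on the last untreated days. PRKCQ-AS1 and PRKCQ, the gene of protein kinase C theta, were at -1.96 and -1.04. The others were -0.60 for ITPK1-AS1 and -1.66 for ITPK1, -0.83 for VLDLR-AS1 and -1.30 for VLDLR, -0.76 for OIP5-AS1 and -0.91 for OIP5, -0.50 for OTUD6B-AS1 and -0.89 for OTUD6B, -0.70 for ASMTL-AS1 and -0.84 for ASMTL, -0.90 for MORC2-AS1 and -0.41 for MORC2, -0.66 for HDHD5-AS1 and -0.33 for HDHD5, and -0.46 for INTS6-AS1 and -0.39 for INTS6, which encodes a subunit of the Integrator complex. With day 0 subtracted 4 of these antisense genes turned upward, to 0.25 for ITPK1-AS1, 0.079 for VLDLR-AS1, 0.62 for ASMTL-AS1 and 0.64 for HDHD5-AS1, and none of the 4 passed. The late changes of the partners are given without that subtraction. Their day 0 arrays differed by -1.12 for VLDLR, -0.75 for ASMTL and -0.56 for MORC2, and upward for the other partners that were lower late. They differed by 0.28 for ANXA2R, 0.31 for EZR and 0.80 for SERTAD4.

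Opposite changes were called in 5 pairs, with SLC38A2-AS1 and HPN-AS1 kept through the BMP4 arm, so the filter bears on their direction. TPT1-AS1 rose by 1.36 while TPT1, one of the brightest genes on the array, moved from 25252, 27027, 25396 and 24202 in untreated cells to 20879, 21241, 21921 and 23133 with BMP4 on days 4 to 7 (log2 -0.23 ± 0.06 (SE), adjusted p = 0.00614). MCM3AP-AS1 fell by 1.35 while MCM3AP rose by 0.40 (adjusted p = 0.011). SLC38A2-AS1, starting 10 bases from the amino acid transporter gene SLC38A2, read 134.7, 133, 123 and 127 without and 148, 142, 141 and 143 with BMP4 on days 4 to 7 (log2 0.52 ± 0.14 (SE), adjusted p = 0.00534). SLC38A2 fell from 977, 924, 1016 and 689 to 477, 413, 425 and 507 (log2 -1.17 ± 0.19 (SE), adjusted p = 6.01e-05). The remaining pairs were -0.61 for DLGAP4-AS1 and 0.60 for DLGAP4, and 0.41 for HPN-AS1 and -1.07 for HPN. The antisense genes of these last 3 pairs lay close to the floor, and the change of SLC38A2-AS1 was at least 1.24-fold. With day 0 subtracted their late log2 changes came to -0.0027 for SLC38A2-AS1, -0.10 for DLGAP4-AS1 and -0.30 for HPN-AS1, the last of these on the same side as HPN, and none passed. The day 0 arrays of the partners differed by 0.38 for SLC38A2, -0.30 for DLGAP4 and -0.85 for HPN. Late changes of the partners are given without that subtraction. In other pairs the partner passed and the antisense gene did not: PGM5 rose by 2.83 (adjusted p = 7.47e-06) while PGM5-AS1 was at -0.31 and did not pass (adjusted p = 0.305).

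In all, 3 LINC genes within 5000 bases of a tested coding gene were called late together with it. LINC01607, on chromosome 8 near HEY1, a Notch-responsive transcription factor gene, read 119, 129.6, 119, 129.6, 135.03, 134, 126 and 139 without and 118, 122, 116, 120.4, 139, 154, 165 and 155 with BMP4. It crossed the floor on day 4 and was at least 1.46-fold higher late (log2 0.64 ± 0.17 (SE), adjusted p = 0.00435), a call that ended with day 0 subtracted (adjusted p = 0.235). HEY1 had reached 471 on day 1 and was 26.6-fold higher late. LINC00391, on chromosome 13 near the neural transcription factor gene SOX21, read 174, 149, 142, 138, 145, 136, 134.7 and 146 without and 124, 128, 129, 133, 131, 119, 133 and 125 with BMP4, under the floor on every BMP4 array. It was at least 1.15-fold lower late (log2 -0.51 ± 0.16 (SE), adjusted p = 0.0124), where SOX21 was 18.8-fold lower. The day 0 arrays of this pair already differed, by -1.54 and 1.91 on the log2 scale, and with day 0 subtracted the late log2 change of LINC00391 turned to 1.03 (adjusted p = 0.0521). LINC02593 lies near SAMD11, which rose 3.41-fold late (log2 1.77 ± 0.15 (SE), adjusted p = 6.67e-08).

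**Figure D5:**
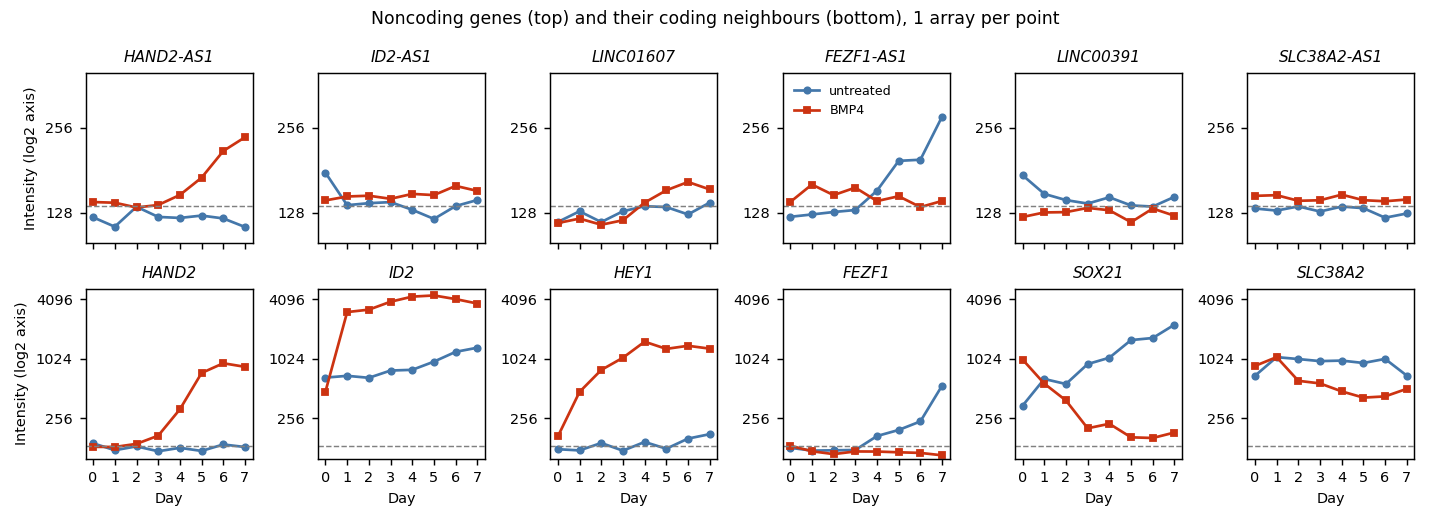
Deposited intensity (log2 axis) by day for 6 noncoding genes (top row) and their coding neighbours (bottom row), 1 array per point, untreated cells in blue circles and BMP4 in red squares, detection floor dashed, with different vertical ranges in the rows. HAND2-AS1 and HAND2 rose late under BMP4, FEZF1-AS1 and FEZF1 were brightest in untreated cells on the last days, and SLC38A2-AS1 was higher and SLC38A2 lower late under BMP4.

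A longer list of long noncoding RNAs, most of them with symbols outside the name rule, gave a wider view. Of 74 listed 32 were tested, 3 of which are also members, and 4 rose and 15 fell in the late window, with a median log2 change of -0.30 against 0.00 over all genes. Over all genes 27.5% were higher and 26.9% lower late, and the counts of this and the following lists are to be set against those shares. The largest falls, as log2 changes with their SE, were MIAT at -2.40 ± 0.19, a neuronal nuclear RNA, DANCR at -1.59 ± 0.19, known from epidermal cells as an RNA that holds back differentiation, UCA1 at -1.27 ± 0.20 and PVT1 at -1.04 ± 0.17, beside MYC. The day 0 arrays already differed by -0.94 for MIAT and -1.28 for PVT1. The largest rises were MIR503HG at 2.34 ± 0.48, the host of microRNA genes on the X chromosome, HOTTIP at 0.91 ± 0.18, at the end of the HOXA cluster, and SNHG11 at 0.85 ± 0.13. Of 18 tested hosts of small nucleolar RNAs 1 rose and 7 fell late, and each of these called genes is already counted in the longer list. Of 19 tested imprinted genes, listed to place H19 and MEG3, 6 rose and 3 fell, among them IGF2, the neighbour of H19, at 1.84 ± 0.48. Of 10 listed noncoding RNAs known from human embryonic stem cells only LINC00173 was tested, and it did not pass (late log2 -0.02, adjusted p = 0.934). A last list, made by the gene family in the partner's symbol, held 7 antisense members. Their partners are HAND2, DLX6, ZEB1, FGF14 and the zinc finger genes ZNF667, ZNF606 and ZNF674, so ID2-AS1 and FEZF1-AS1 are not in it. In this list HAND2-AS1 and DLX6-AS1 rose late and ZEB1-AS1 fell, and none of these calls held with day 0 subtracted. DLX6-AS1 lay close to the floor and rose by at least 1.02-fold, while the late log2 change of ZEB1-AS1 turned to 0.60 with day 0 subtracted.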

How the data were processed

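Per the labels' protocols, total RNA was extracted with Trizol, treated with DNase and converted to biotinylated cRNA. Linear intensity values as deposited were used. Their shared median of 128.3 and matching quantiles on all 16 arrays show that the authors had quantile normalized them. Scanner and software: not given in the sources used here. A further deposited table has 32 columns that match no label and was not used.

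The background was estimated by mirroring intensities about their peak (117.4, SD 7.69). The 99th percentile, 134.5, lies at the floor of 135. A normexp correction with this background followed (limma 3.58.1, R 4.3.3), then an offset of 16 and log2. Folds are on this scale, which understates the change of dim genes. Where an arm was not above the floor, the fold is "at least N-fold", with each dim array raised to the floor. Of 47323 probes 30113 have 1 gene symbol, 8 have several and 17202 have none.

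One limma fit over the 16 arrays had a mean for each arm and window with empirical Bayes moderation (intensity trend), two-sided, adjusted by Benjamini-Hochberg over 13257 genes, threshold 0.05. It was tested on simulated data. No depth applies to arrays, so their number limits the precision.

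Named were H19, MEG3, MALAT1, NEAT1, TUG1 and GAS5; per window, 10 members that rose most and 10 that fell most past the threshold with non-overlapping arms; 4 in each direction for the window difference and for change over time; 3 in each direction at day 0; and antisense partners. Other members are named as examples chosen after their values were seen. Members and lists were chosen with earlier results of these data known. Alternatives changed the background, offset, filter, centring, probe rule, moderation, day block, day 0 subtraction, windows and single arrays. Promoter windows are RefSeq's (GRCh38.p14).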

Additional observations from a re-analysis of the deposited data

Results flagged for a closer look

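The late effect differed from the early effect, by the limma test of the difference adjusted over all genes, for these named members, as log2 values: ATP2B1-AS1 1.66, HAND2-AS1 1.38, LINC01252 1.07 and LINC01607 0.86 upward, and FEZF1-AS1 -2.22, LINC01315 -1.54, LINC00997 -1.12 and LINC00623 -0.93 downward. Adjusted p-values ran from 0.0034 for FEZF1-AS1 to 0.0491 for LINC01607. With single arrays left out in 14 fits, the calls for FEZF1-AS1 and LINC01315 were kept in all, those for ATP2B1-AS1 and LINC00997 were lost in 2 each, and those for LINC00623, HAND2-AS1, LINC01252 and LINC01607 in 4, 10, 10 and 11. In other alternatives the call was lost for HAND2-AS1 at an adjusted p of 0.0545 to 0.066 in plain log2 intensity, without the filter or with days 1 to 2 as the early window, for LINC01252 at 0.0609 to 0.0765 without the filter or with housekeeping centring, and for LINC01607 at 0.0513 to 0.115 in plain log2 intensity, without the filter, with the filter at 150, with housekeeping centring or with days 1 to 2 as the early window.

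Single arrays of the late window stood apart from the other 3 of their arm in 5 of 80 groups of named genes, and chance alone gives about 1 in 20. ATP2B1-AS1 read 287 on untreated day 7 against 219 to 221 on the other days. OIP5-AS1 read 1251 on untreated day 6 against 927 to 971. LINC00092 read 157 on untreated day 6 against 186 to 193. ZEB1-AS1 read 161 on untreated day 4 against 190.1 to 194, and 171 on BMP4 day 6 against 136 to 139.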

How the results depend on the processing

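The counts depended most on the day 0 arrays. With the day 0 difference subtracted 0 members were higher and 1 lower early (LINC01844; 18 and 9 by limma at an unadjusted p under 0.05), and 9 higher and 11 lower late, where 2.37% and 19.7% of all genes were called. This rests on 1 array per arm, which widens the error. Named changes that turned sign, as log2 after subtraction, were GAS5 -0.21, H19 0.27, HDHD5-AS1 0.16, LINC00841 -0.094 and ZEB1-AS1 0.51 early, and GAS5 -0.18, H19 0.71, HDHD5-AS1 0.64, ITPK1-AS1 0.25, LINC00667 -0.71, LINC00997 -0.20, SERTAD4-AS1 -0.13, VLDLR-AS1 0.079 and ZEB1-AS1 0.60 late. Among other members described, ASMTL-AS1, EZR-AS1, HPN-AS1, LINC00391 and SLC38A2-AS1 turned late and HPN-AS1 and SLC38A2-AS1 early. With days 1 to 2 as the early window 8 were higher and 8 lower early, where 17.8% of all genes were called. Centring on 17 housekeeping genes, which moved the late median of all genes from 0.00 to -0.10 and the share of late calls that are higher from 50.5% to 41.0%, left 17 higher early and turned TUG1 late to -0.0011. A filter at 150 left 76 members tested and 23 higher late. The windows differed upward for 2 members in plain log2, 1 without a filter, 2 with housekeeping centring and 2 with days 1 to 2, and downward for 8 with days 5 to 7. The untreated rise of 1 member became 0 in plain log2, with an offset of 50 or with days 1 to 2, and 2 with days 5 to 7, and 15 members rose within the BMP4 arm with days 5 to 7. MEG3 late was 0.00040 in plain log2. Other alternatives kept each count within 1.5 times. Leaving out single arrays gave 14 to 29 higher and 9 to 15 lower early, 32 to 41 and 20 to 27 late, 0 to 5 and 2 to 9 for the window difference, 0 to 1 and 0 to 0 for the untreated arm and 5 to 14 and 10 to 15 for the BMP4 arm. H19 late then ranged from -0.55 to 0.37 and MEG3 late from -0.12 to 0.22. Same-day deviations of the arms from their window means correlated between -0.04 and 0.29, highest on day 2. These deviations hold the trends within windows, so they do not settle whether the days pair the arrays. With day as a replicate block 26 were higher and 14 lower early, 37 and 27 late, and 3 and 5 for the window difference, and the calls for SERTAD4-AS1 late and for the LINC01607 window difference ended (adjusted p = 0.0719 and 0.0722); the changes over time could not be fitted. The cause of these shifts was not tested. Signal near the floor limits the dim members.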

Other observations

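At day 0, with 1 array per arm and no test, the largest differences among members above the floor on both arrays, as log2 BMP4 minus untreated, were LINC00667 1.25, VPS9D1-AS1 1.11 and LINC02035 0.95 upward and LINC02209 -1.16, CD27-AS1 -1.07 and LINC02076 -1.01 downward. LINC00667 read 156 on the untreated day 0 array and 212 to 234 on the later untreated days, and 232 on the BMP4 day 0 array. CD27-AS1 and LINC02209 were not called in either window. NOP14-AS1 and LINC02543, among members that passed late only with day 0 subtracted, had late log2 changes of 0.15 and 0.03 without that subtraction.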
